A study of Mus musculus with 12 samples.

Results

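Replication-dependent core histone genes encode the 4 proteins H2A, H2B, H3 and H4, around which DNA is wrapped in the nucleosome. The 61 genes described here are the protein-coding genes of GENCODE release M21 (mouse build GRCm38) whose symbols begin with Hist1 to Hist4 followed by h2a, h2b, h3 or h4, taken from the 52654 genes complete in all the deposited files. They comprise 18 H2A, 18 H2B, 12 H3 and 13 H4 genes. The Hist1 cluster on chromosome 13 holds 48 of them, the Hist2 cluster on chromosome 3 holds 10, Hist3 on chromosome 11 holds 2 and Hist4 on chromosome 6 holds 1. Linker histone (H1) genes were left out, as were 3 non-coding genes with matching symbols. The rule for membership used symbols and annotation, not measured values, but the family was chosen with earlier results of these data known.

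RNA was sequenced from MC3T3-E1 subclone 14 cells, a single clone of a mouse calvarial pre-osteoblast line, grown on titanium (Ti) discs whose surface was either a control or bore nanotopography. On each surface the cells were either isolated or in indirect co-culture with RAW 264.7 cells, a mouse macrophage-like line, that had been driven toward osteoclasts, the bone-resorbing cells, with RANKL at 50 ng/mL. All osteoblast cultures received osteogenic medium for 7 days, which held ascorbic acid at 5 µg/mL and β-glycerophosphate at 7 mM. In the co-cultures the 2 cell types grew apart for 5 days and shared medium across an insert with 0.4 µm pores for the last 2 days. Total RNA was taken with TRIzol, and libraries were made with a SMARTer kit; whether poly(A) RNA was selected is not given in the sources used here. The 4 groups, isolated on control Ti, isolated on nanotopography, co-culture on control Ti and co-culture on nanotopography, had 3 libraries each, which the labels call biological triplicates. P-values measure the spread between these libraries. Whether isolated cells received RANKL or an empty insert is not given in the sources used here, so the osteoclasts, the insert and RANKL cannot be told apart.

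Histone proteins are needed in bulk when DNA is copied, so these genes are transcribed mainly in S phase and their mRNAs are destroyed when replication stops. Most of their mRNAs have no intron and no poly(A) tail. They end instead in a short stem-loop that the stem-loop binding protein, SLBP, holds during processing and translation and that the U7 small nuclear ribonucleoprotein helps to cut. Some of the genes can also yield longer, polyadenylated transcripts. Replacement variants such as H2A.Z and H3.3 come from separate genes that are expressed outside S phase and carry ordinary poly(A) tails. Osteoblasts slow and then stop dividing as they mature.

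The stem-loop is the sequence that sets these mRNAs apart, and it is shown here for the members whose values are described below. The whole sequence of every annotated protein-coding transcript was searched for a 6-base stem, a 4-base loop and the matching 6-base stem. The first stem had to begin with GG, continue with C or T and end in T. The loop had to read TT, then T or C, then any base but G. This motif was found in 40 of the 61 members. Of 21901 protein-coding genes with a transcript sequence, 50 held it (0.228%), 10 of them outside the members. Among the other 21 members, 14 had an annotated 3′ untranslated region of at most 2 bases, and 7 had a longer one without the motif. Hist1h2bc is one of the 7: its longest annotated transcript is spliced, and its 3′ untranslated region of 742 bases holds the poly(A) signal AATAAA. Stems and loops are in capitals, with 5 flanking bases on each side where the annotation reaches that far, read 5′ to 3′ on the transcript's strand from the GRCm38 transcripts of GENCODE M21.
Hist2h2ac: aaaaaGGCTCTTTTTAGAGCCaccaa
Hist1h2ab: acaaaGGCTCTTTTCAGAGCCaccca
Hist1h2bm: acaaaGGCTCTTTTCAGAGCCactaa
Hist1h2bh: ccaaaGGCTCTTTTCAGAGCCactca
Hist1h3b: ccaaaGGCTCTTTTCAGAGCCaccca
Hist1h3c: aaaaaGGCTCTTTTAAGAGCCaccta
Hist1h4d: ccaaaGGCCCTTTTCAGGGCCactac
Hist1h4b: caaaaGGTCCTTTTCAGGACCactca
Hist2h4: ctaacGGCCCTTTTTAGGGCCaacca
The stem of the H2A, H2B and H3 genes shown reads GGCTCT, whereas the H4 genes shown carry GGCCCT or GGTCCT.

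H2A and H2B genes often lie head to head and share the DNA between their start sites. By the annotated starts, 12 such pairs were separated by at most 500 bases. The region between Hist2h2ac and its H2B neighbour Hist2h2be is shown because the 2 genes had different values in these libraries. Hist2h2ac was the most abundant member on average over the 12 libraries. The region between Hist1h2ac and Hist1h2bc is shown because it holds the H2B gene most abundant on average. Both are RefSeq windows of GRCm38.p6, at chr3:96220881-96221118 and chr13:23683960-23684198, each read 5′ to 3′ on the minus strand toward the H2A gene, with matches on either strand to 3 promoter motifs in capitals. One is the CCAAT box and another the TATA box (TATAAA), both found in promoters of many genes, and the last is the octamer known from H2B promoters (ATTTGCAT).
Hist2h2ac to Hist2h2be: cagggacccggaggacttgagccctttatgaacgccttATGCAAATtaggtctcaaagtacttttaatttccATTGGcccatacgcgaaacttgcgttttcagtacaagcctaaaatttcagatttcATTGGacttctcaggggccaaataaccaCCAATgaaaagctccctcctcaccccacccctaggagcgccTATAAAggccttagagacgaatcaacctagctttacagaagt
Hist1h2ac to Hist1h2bc: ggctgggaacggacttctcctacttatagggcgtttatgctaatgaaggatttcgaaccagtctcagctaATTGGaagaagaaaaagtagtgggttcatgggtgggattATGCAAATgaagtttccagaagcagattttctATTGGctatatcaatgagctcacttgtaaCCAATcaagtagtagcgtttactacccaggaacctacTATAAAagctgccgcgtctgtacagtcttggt
Each region held 3 CCAAT, 1 TATAAA and 1 ATTTGCAT. In RefSeq windows from 250 bases before to 50 after the start, matched for 56 members, CCAAT on either strand occurred in 47 members (83.9%) and in 37.4% of all 32851 windows. TATAAA occurred in 31 members (55.4%, against 13.6% of all windows), and ATTTGCAT in 14 (25.0%, against 1.74%). The 14 octamer matches were in 7 of 18 H2A and 7 of 16 H2B windows, with 0 of 10 H3 and 0 of 12 H4 windows holding one. CCAAT was found in all 18 H2A, 16 H2B and 10 H3 windows and in 3 of the 12 H4 windows. The 3 searches overlap where windows of neighbouring genes share sequence, and a match describes the letters only.

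Libraries held between 5866842 and 9207831 counts over the genes used. All 12 osteoblast markers examined, including Runx2, Sp7 and Col1a1, were detected in each group. Their summed level was 103340 to 116597 CPM (counts per 1000000, on the library's total scaled by TMM, edgeR's trimmed-mean factor) in isolated cells on control Ti, 108375 to 112699 on nanotopography, 92601 to 108233 in co-culture on control Ti and 60811 to 69619 in co-culture on nanotopography. With co-culture 3 of the 12 fell and 1 rose on control Ti, and 6 fell and 2 rose on nanotopography, and between surfaces in co-culture 7 fell and 1 rose. Of all tested genes, 19.7, 59.2 and 42.0% were called in either direction in these comparisons, in that order. The summed level of 17 macrophage and osteoclast markers was 190 to 197 CPM in isolated cells on control Ti, 181 to 207 on nanotopography, 194 to 206 in co-culture on control Ti and 192 to 245 in co-culture on nanotopography. In these 4 groups, in that order, 7, 6, 3 and 1 of the 17 stood at 0 in every library, Calcr among them each time. Most of the sum came from 1 gene, Ctsk, with group means of 169, 166, 171 and 183 CPM. Of the 7 tested, 4 rose with co-culture on nanotopography (Cd68, Csf1r, Lyz2 and Atp6v0d2) and 1 fell (Mmp9), and on control Ti 0 were called by edgeR or by DESeq2 (1 at an unadjusted p under 0.05). Atp6v0d2 had 0 counts in all isolated libraries, 7 in co-culture on control Ti and 73 in co-culture on nanotopography. On nanotopography Cd68 had 5, 41 and 32 counts in co-culture against 4, 9 and 5 in isolated cells. Csf1r had 18, 56 and 70 against 16, 10 and 12. For both genes co-culture replicate 1 lay near the isolated libraries, while Lyz2 and Atp6v0d2 were higher in every co-culture library there. The part of both marker lists in the histone results was not tested. In bulk RNA, fewer replicating cells and less histone mRNA per cell cannot be told apart.

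Of the 61 members, 42 had enough counts to be tested and 19 did not. The 7 members with 0 counts in every library were Hist1h2ao, Hist1h2ap, Hist1h2bq, Hist1h2br, Hist1h4m, Hist2h2aa1 and Hist2h3c1. At least 88.5% of the 50-base stretches of each of these 7 also occur in another gene, and how the counting treated reads that match several genes is not given in the sources used here. A count of 0 allows up to 3 counts over the 12 libraries. The other 12 untested members had at most 76 counts in all. The low-count filter asks for a level in any 3 libraries, and 9 members reached it in each of the 4 groups taken alone. The other 33 reached it in some groups only, or by libraries of different groups. A member that is tested because of one high group is bound to differ between groups, so counts for the 9 are given beside those for the 42. Sequence sharing also affects tested members: 19 of the 61 share over 80% of their 50-base stretches with another gene, and values of such single copies are uncertain. Members whose values are given below include Hist1h2af (94.0% shared), Hist1h2ah (92.1%), Hist1h2ai (90.1%), Hist1h3i (87.6%) and Hist1h2bn (86.4%).

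The summed level of the 61 genes separated all 4 groups. Isolated cells on control Ti held 277, 311 and 419 CPM (mean 336 ± 74.2, SD, n = 3). On nanotopography, isolated cells held 737, 557 and 916 CPM (737 ± 179.8, SD, n = 3). Co-cultured cells held 108, 170.3 and 193 CPM on control Ti (157 ± 44.0, SD, n = 3) and 59.6, 77.6 and 58.6 CPM on nanotopography (65.2 ± 10.7, SD, n = 3). The ranges of the 4 groups did not overlap, with isolated cells on nanotopography highest and co-cultured cells on nanotopography lowest. Group means were 2.14 times lower in co-culture than in isolation on control Ti and 11.3 times lower on nanotopography. The 2 surfaces stood in opposite order in the 2 kinds of culture: nanotopography was 2.20 times higher than control Ti in isolated cells and 2.41 times lower in co-cultured cells. Without Hist2h2ac, the ratios of isolated to co-cultured cells were 1.87 on control Ti and 7.98 on nanotopography.

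Beside the histone sums, Gm26917 and Gm42418, predicted genes to which reads of ribosomal RNA are often assigned, took 2.77, 3.21 and 5.46% of the counts in isolated cells on control Ti and 8.33, 3.66 and 6.83% on nanotopography. In co-culture they took 1.52, 1.91 and 2.08% on control Ti and 0.756, 0.800 and 0.350% on nanotopography. This share was in the same order of group means as the histone sum, although the isolated groups overlapped. In each of the 4 groups the library with the lowest histone sum also had the lowest share, and in 3 of the 4 the library with the highest sum had the highest share. The 2 mitochondrial ribosomal RNAs had another order, with 8.17% ± 1.55, 5.14% ± 1.05, 6.49% ± 0.304 and 11.6% ± 3.75 (SD, n = 3) in the same 4 groups. Leaving all 4 of these genes out before scaling gave 17, 39, 29, 13 and 29 called members in the 5 comparisons below, against 18, 39, 27, 13 and 29 with them. The part of this share in the histone values was not tested.

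**Figure D1:**
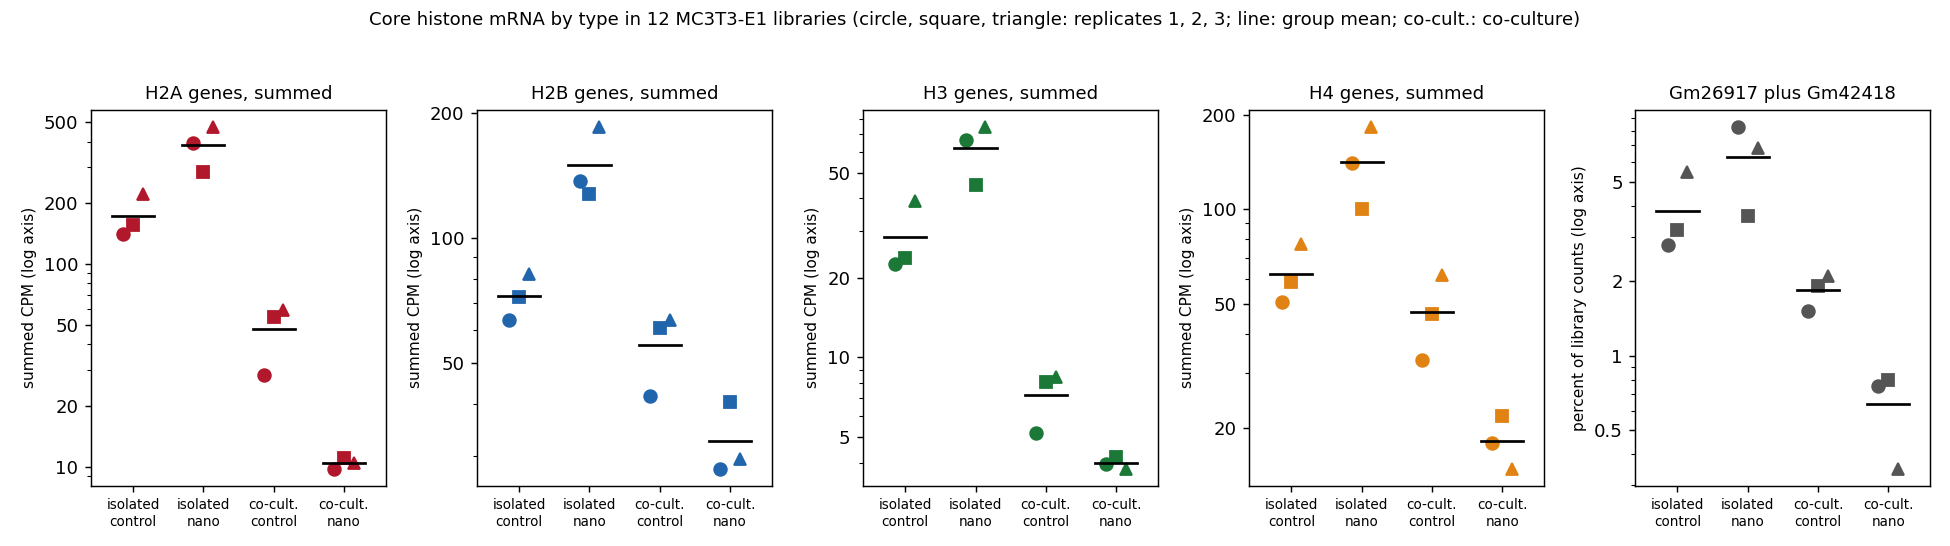
Summed CPM of the H2A, H2B, H3 and H4 genes and the percent of counts in Gm26917 plus Gm42418 (vertical log axes) in each library of the 4 groups (horizontal axis); circles, squares and triangles are replicates 1, 2 and 3 and lines are group means. Co-cultured cells on nanotopography are lowest in all 5 panels, and the H2A and H3 sums on control Ti in co-culture lie far below isolated cells, while the H2B and H4 sums lie close to them.

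The 4 histone types did not keep their proportions. H2A genes supplied 51.1% ± 1.35 of the histone sum in isolated cells on control Ti and 52.0% ± 1.19 on nanotopography, but 29.7% ± 3.16 and 16.2% ± 1.83 in co-culture (SD, n = 3). With Hist2h2ac set aside, the other 17 H2A genes held 17.5% ± 0.948 and 18.1% ± 1.89 in isolated cells, 6.20% ± 1.25 in co-culture on control Ti and 9.23% ± 2.37 on nanotopography (SD, n = 3). H2B genes went the other way, from 21.9% ± 2.04 and 20.6% ± 2.21 in isolated cells to 35.8% ± 2.79 and 49.7% ± 2.67 in co-culture. The H2B sum in co-culture on nanotopography was 27.9, 40.4 and 29.4 CPM. Most of it came from Hist1h2bc and Hist2h2bb together, whose values are given below, and reads of Hist2h2bb cannot be told apart from those of Gm20628. The H2B share without these genes was not computed. The H3 share was 8.38% ± 0.829 and 8.40% ± 0.530 in isolated cells and 4.63% ± 0.237 and 6.18% ± 0.677 in co-culture. H4 genes held 18.5% ± 0.303, 19.0% ± 1.02, 29.9% ± 2.39 and 28.0% ± 2.41. On control Ti, the mean H2A sum was 3.63 times and the H3 sum 3.94 times lower in co-culture, with no overlap of libraries, against 1.31 times for H2B and 1.32 times for H4, whose libraries overlapped. On nanotopography the ratios were 36.8 for H2A, 15.6 for H3, 7.72 for H4 and 4.61 for H2B. Without Hist2h2ac the H2A ratios were 6.28 on control Ti and 22.4 on nanotopography, and in co-culture the H2A sum was 1.60 times lower on nanotopography than on control Ti, against 4.55 times with it. In isolated cells the means of the 4 types were between 2.07 and 2.27 times higher on nanotopography than on control Ti.

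In co-culture on control Ti, 18 of 42 tested members fell and 0 rose by edgeR's quasi-likelihood test at a Benjamini-Hochberg adjusted p under 0.05, the threshold used throughout (at an unadjusted p under 0.05, 23 were lower and 1 higher, and DESeq2 called 18 lower and 0 higher, with 8.27% of all tested genes called lower). Changes below are log2 fold changes from this test with their SE. Of all tested genes, 19.7% were called in this comparison and 8.72% called lower, and 50.0% of the tested members had 3 co-culture libraries all below the 3 isolated ones against a background of 17.3%. The median log2 fold change of the members was -0.99, against -0.02 over all tested genes. By type, 8 of 11 H2A, 6 of 9 H3, 3 of 11 H4 and 1 of 11 H2B genes fell, with medians of -3.01, -2.11, -0.54 and -0.46. The types were not split by the low-count filter, so these counts and medians include members that reached it in some groups only. Of the 9 members that passed the filter in each group, 3 fell, with a median of -0.42. Without co-culture on control Ti replicate 1, which had the lowest sum of its group, 10 members were called.

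Among H2A genes, Hist2h2ac (chr3:96220361-96220880) supplied most of the reads in both isolated groups and in co-culture on control Ti. In co-culture on nanotopography the other 17 H2A genes held 48, 41 and 37 of the 69, 87 and 69 H2A counts. In isolated cells Hist2h2ac stood at 90.9, 105 and 144 CPM on control Ti and 266, 171 and 319 on nanotopography, and in co-culture at 20.2, 44.3 and 49.8 and 2.97, 5.84 and 4.86. Its 4 groups were fully separated, and per kilobase of annotated exon it was also the highest member, with a mean of 196 CPM per kilobase. The next was Hist2h2bb with 36.7. The log2 fold change with co-culture was -1.58 ± 0.28 (SE, adjusted p = 0.000704) on control Ti and -5.78 ± 0.35 (SE, adjusted p = 3.49e-09) on nanotopography. The level of Hist1h2ab was 16.1, 14.2 and 21.2 CPM on control Ti and 37.2, 31.0 and 44.1 on nanotopography in isolated cells, and 1.62, 2.09 and 1.35 and then 1.42, 1.02 and 0.759 in co-culture. Hist1h2ak measured 11.7, 10.1 and 23.8 CPM in isolated cells on control Ti, 39.7, 29.4 and 45.8 on nanotopography, and in co-culture 0.971, 1.12 and 1.05 on control Ti and 0.708, 0.381 and 0.455 on nanotopography. Every co-culture library lay far below every isolated one for both genes, and in co-culture the 2 surfaces overlapped for Hist1h2ab but not for Hist1h2ak. Hist1h2ak had the lowest called log2 fold change of an H2A gene on control Ti, -3.82 ± 0.37 (SE, adjusted p = 2.52e-06), and also on nanotopography, -6.18 ± 0.40 (SE, adjusted p = 5.89e-09). For Hist1h2ab the 2 values were -3.32 ± 0.25 (SE, adjusted p = 1.42e-07) and -5.11 ± 0.26 (SE, adjusted p = 3.54e-10).

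The H2A genes with annotated long 3′ untranslated regions differed from these. In isolated cells Hist1h2ac stood at 1.43, 3.37 and 2.35 CPM on control Ti and 3.53, 4.99 and 4.92 on nanotopography, and in co-culture at 1.83, 1.81 and 2.25 and 0.991, 0.254 and 1.52. On control Ti its groups overlapped, at -0.30 ± 0.40 (SE, adjusted p = 0.637), and on nanotopography it fell by 2.31 ± 0.43 (SE, adjusted p = 0.000243), the called H2A value nearest to 0. Hist3h2a, on chromosome 11, was low everywhere. The level of Hist3h2a was 1.17, 1.16 and 1.51 CPM on control Ti and 0.336, 0.881 and 0.849 on nanotopography in isolated cells, and 1.51, 1.67 and 1.05 and then 1.84, 1.02 and 1.06 in co-culture. It was not called in any comparison and was the one tested H2A gene whose co-culture libraries on nanotopography all lay above the isolated ones, at 0.89 ± 0.47 (SE, adjusted p = 0.11).

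H2B genes moved less on control Ti. Hist1h2bc measured 14.8, 15.6 and 15.9 CPM in isolated cells on control Ti, 27.6, 22.2 and 29.7 on nanotopography, and in co-culture 12.4, 15.3 and 13.8 on control Ti and 11.3, 11.9 and 9.71 on nanotopography. Co-culture on control Ti overlapped isolated cells for Hist1h2bc, at -0.16 ± 0.15 (SE, adjusted p = 0.485), while on nanotopography the gene was lower in all 3 libraries, at -1.26 ± 0.15 (SE, adjusted p = 3.52e-06), the called H2B value nearest to 0. In isolated cells Hist1h2bm stood at 8.33, 10.5 and 14.1 CPM on control Ti and 29.1, 27.3 and 39.6 on nanotopography, and in co-culture at 7.12, 7.95 and 9.92 and 4.53, 4.44 and 3.79. Its range in co-culture on control Ti overlapped that of isolated cells, at -0.39 ± 0.21 (SE, adjusted p = 0.208). On nanotopography it fell by 2.90 ± 0.22 (SE, adjusted p = 3.14e-08). The level of Hist2h2bb was 14.2, 15.7 and 19.0 CPM on control Ti and 22.2, 19.4 and 34.3 on nanotopography in isolated cells, and 5.18, 9.20 and 9.02 and then 2.83, 10.7 and 6.38 in co-culture. Hist2h2bb was the 1 H2B gene called on control Ti, at -1.08 ± 0.32 (SE, adjusted p = 0.0259), with an adjusted p of 0.0697 by DESeq2, and adjusted p-values of 0.0501 to 0.13 with one of 4 libraries left out. Its reads cannot be told apart from those of another gene: Hist2h2bb lies wholly within exons of the antisense gene Gm20628, its 50-base stretches are all shared, and no strand setting is given.

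The lowest H2B value on nanotopography came from few reads. Hist1h2bh measured 1.69, 1.16 and 1.51 CPM in isolated cells on control Ti, 2.69, 3.67 and 4.24 on nanotopography, and in co-culture 0.971, 0.558 and 1.65 on control Ti and 0.283, 0 and 0 on nanotopography. Co-culture on nanotopography had 2 counts of Hist1h2bh in all against 66 in isolated cells, a ratio of 38.1 (95% counting interval 10.1 to 321), and the test gave -5.01 ± 0.66 (SE, adjusted p = 7.90e-06). On control Ti its groups overlapped, at -0.46 ± 0.47 (SE, adjusted p = 0.521). Hist1h2bh holds the same stem and loop as Hist1h2ab and Hist1h3b, shown above, but its annotated 3′ untranslated region of 1258 bases runs on for 1214 bases after it, against 11 for Hist1h2ab and 51 for Hist1h3b.

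All 9 tested H3 genes were lower in co-culture on nanotopography, and 6 on control Ti. In isolated cells Hist1h3c stood at 4.04, 3.96 and 10.4 CPM on control Ti and 12.4, 6.90 and 13.7 on nanotopography, and in co-culture at 1.51, 3.07 and 2.41 and 1.27, 0.762 and 0.607. The level of Hist1h3b was 5.86, 4.65 and 8.73 CPM on control Ti and 12.6, 10.7 and 15.1 on nanotopography in isolated cells, and 0.216, 0.139 and 0.752 and then 0.566, 0.635 and 0.304 in co-culture. Hist1h3e measured 1.82, 3.26 and 5.04 CPM in isolated cells on control Ti, 10.4, 6.02 and 9.00 on nanotopography, and in co-culture 0.539, 0.697 and 0.601 on control Ti and 0.283, 0.381 and 0.607 on nanotopography. Hist1h3b was nearly absent from both co-culture groups, and Hist1h3c was separated from isolated cells on each surface but by a smaller margin. On control Ti, Hist1h3b had the lowest called value of all members, -4.11 ± 0.44 (SE, adjusted p = 6.44e-06), and Hist1h3c the called H3 value nearest to 0, -1.37 ± 0.41 (SE, adjusted p = 0.0263), with adjusted p-values of 0.0605 to 0.135 with one of 3 libraries left out. On nanotopography both fell, Hist1h3b at -4.60 ± 0.38 (SE, adjusted p = 8.75e-08) and Hist1h3c at -3.61 ± 0.46 (SE, adjusted p = 6.50e-06). Hist1h3e also fell on both, at -2.41 ± 0.45 (SE, adjusted p = 0.00119) on control Ti and -4.28 ± 0.44 (SE, adjusted p = 6.65e-07) on nanotopography.

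The extremes among H3 genes on nanotopography were Hist1h3g and Hist1h3d. Hist1h3g had 1 count in co-culture against 50 in isolated cells, a ratio of 57.7 (95% counting interval 9.89 to 2325), and a log2 fold change of -5.42 ± 0.92 (SE, adjusted p = 9.80e-05). In isolated cells Hist1h3d stood at 2.86, 2.56 and 3.36 CPM on control Ti and 7.57, 3.23 and 7.30 on nanotopography, and in co-culture at 0.539, 1.39 and 0.752 and 0.425, 1.02 and 0.759. It fell by 2.98 ± 0.43 (SE, adjusted p = 1.96e-05), the smallest called fall of an H3 gene.

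H4 genes fell mainly in co-culture on nanotopography. The level of Hist2h4 was 14.2, 14.2 and 20.1 CPM on control Ti and 36.6, 21.6 and 39.9 on nanotopography in isolated cells, and 12.7, 15.8 and 16.7 and then 7.64, 10.9 and 4.25 in co-culture. Hist1h4d measured 8.72, 16.2 and 18.3 CPM in isolated cells on control Ti, 28.4, 27.6 and 38.9 on nanotopography, and in co-culture 6.80, 8.65 and 17.3 on control Ti and 2.97, 2.41 and 3.04 on nanotopography. In isolated cells Hist1h4h stood at 11.5, 10.6 and 13.9 CPM on control Ti and 25.4, 15.4 and 41.9 on nanotopography, and in co-culture at 3.02, 4.88 and 8.12 and 2.12, 2.67 and 2.58. On control Ti the co-culture libraries of Hist2h4 and Hist1h4d overlapped the isolated ones, and those of Hist1h4h lay below them. The log2 fold changes on control Ti were -0.10 ± 0.26 (SE, adjusted p = 0.827) for Hist2h4 and -0.42 ± 0.30 (SE, adjusted p = 0.34) for Hist1h4d. Hist1h4h fell by 1.20 ± 0.34 (SE, adjusted p = 0.022), with adjusted p-values of 0.117 without co-culture on control Ti replicate 1 and 0.0776 without replicate 2. On nanotopography all 3 fell, Hist2h4 at -2.08 ± 0.27 (SE, adjusted p = 7.58e-06), Hist1h4d at -3.49 ± 0.34 (SE, adjusted p = 4.61e-07) and Hist1h4h at -3.47 ± 0.37 (SE, adjusted p = 9.91e-07).

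Among the remaining H4 genes, Hist1h4b and Hist1h4f were also called on control Ti. The level of Hist1h4b was 1.69, 2.79 and 2.35 CPM on control Ti and 6.39, 4.55 and 7.98 on nanotopography in isolated cells, and 0.324, 0.976 and 0.902 and then 0.142, 0.381 and 0 in co-culture. It fell by 1.68 ± 0.47 (SE, adjusted p = 0.0192) there, with adjusted p-values of 0.102 without co-culture on control Ti replicate 1 and 0.0957 without isolated replicate 2, and on nanotopography it had the lowest called H4 value, -4.96 ± 0.54 (SE, adjusted p = 1.25e-06). Hist1h4f stood at the threshold on control Ti, -0.92 ± 0.32 (SE, adjusted p = 0.0499), and was not called by DESeq2 (adjusted p = 0.0565). Hist4h4 measured 1.69, 1.16 and 2.85 CPM in isolated cells on control Ti, 7.73, 3.96 and 6.45 on nanotopography, and in co-culture 2.59, 1.53 and 2.56 on control Ti and 0.991, 1.02 and 0.759 on nanotopography. Its groups overlapped on control Ti, at 0.29 ± 0.38 (SE, adjusted p = 0.635), and on nanotopography it fell by 2.67 ± 0.39 (SE, adjusted p = 2.24e-05). Hist1h4i had the highest value of any member on control Ti, 1.34 ± 0.51 (SE, adjusted p = 0.074), which did not pass the test.

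**Figure D2:**
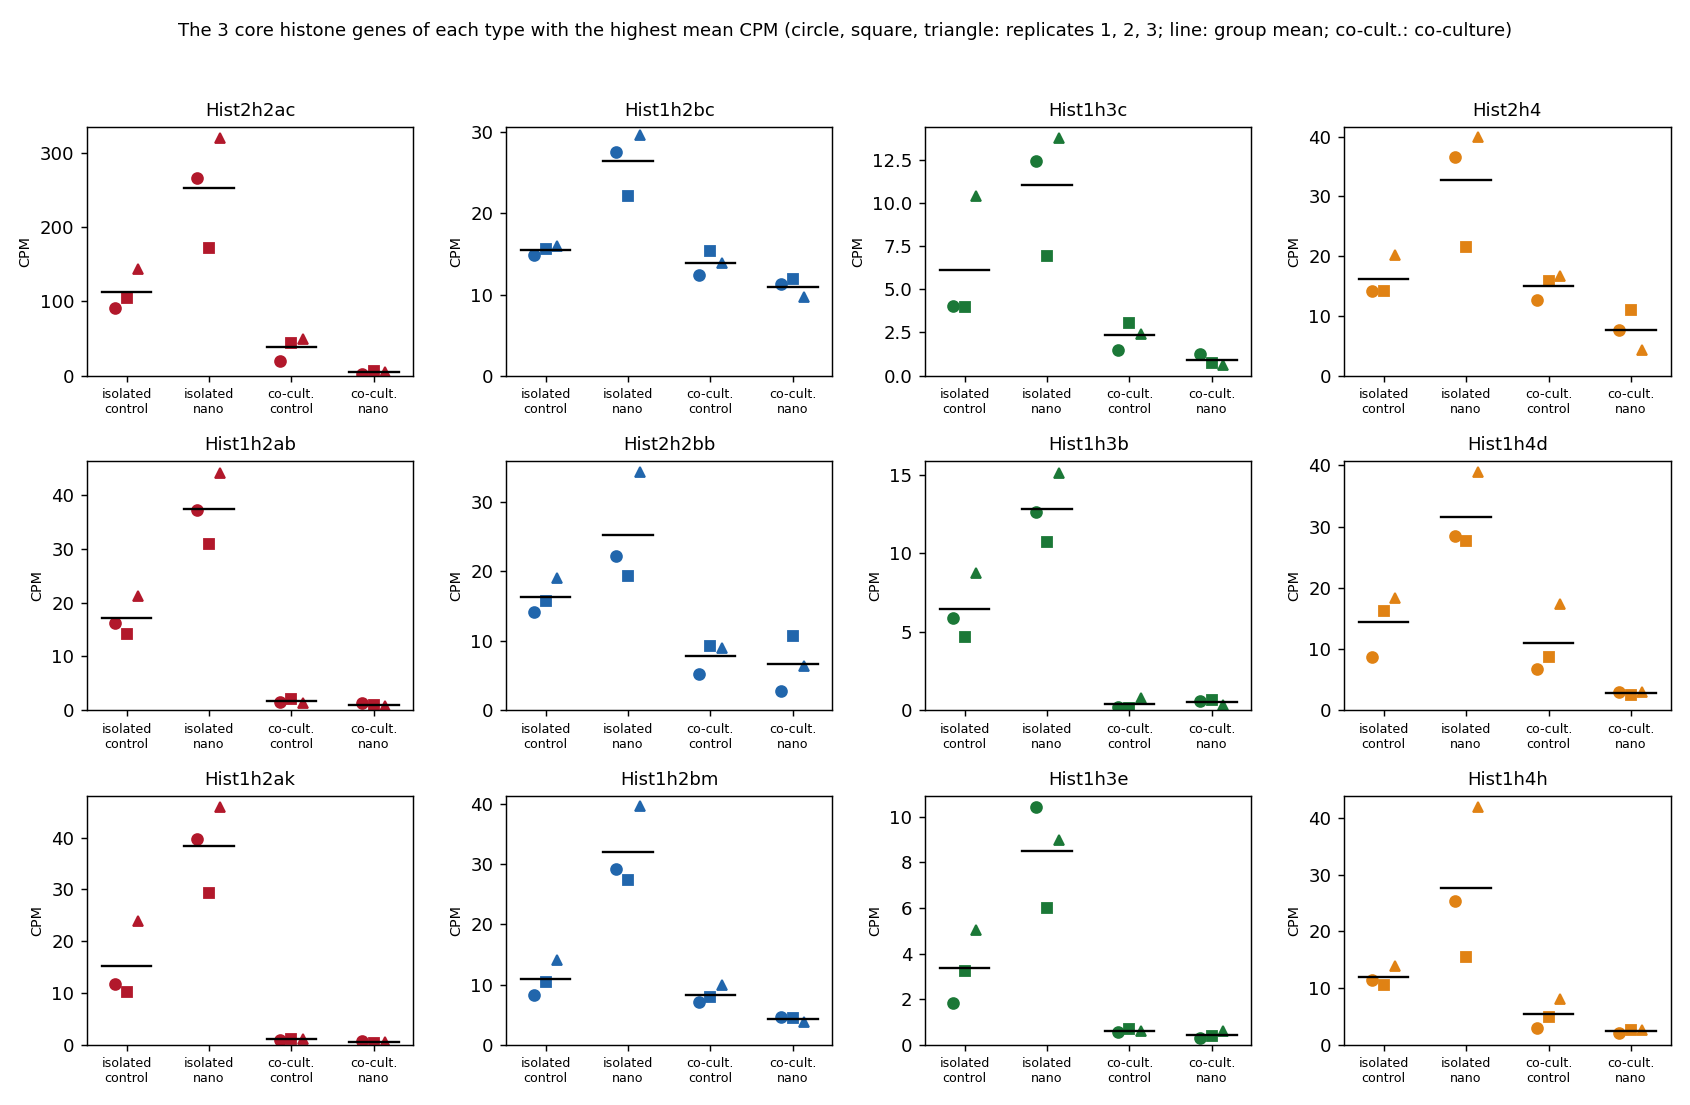
CPM (vertical axes, from 0) of the 3 genes of each histone type with the highest mean level, in each library of the 4 groups; circles, squares and triangles are replicates 1, 2 and 3 and lines are group means. Isolated cells on nanotopography have the highest mean in all 12 panels, and Hist1h2ab, Hist1h2ak, Hist1h3b and Hist1h3e are near 0 in both co-culture groups, while Hist1h2bc and Hist2h4 in co-culture on control Ti overlap isolated cells.

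In co-culture on nanotopography, 39 of 42 tested members fell and 0 rose by edgeR (at an unadjusted p under 0.05, 40 were lower and 0 higher, and DESeq2 called 39 lower and 0 higher, with 28.9% of all tested genes called lower). The background was high, with 59.2% of all tested genes called and 30.4% called lower. In 95.2% of tested members the 3 co-culture libraries all lay below the 3 isolated ones, against 32.9% of all tested genes. The median of the members was -3.48, against a median within 0.01 of 0 over all tested genes. By type, 10 of 11 H2A, 10 of 11 H2B, 9 of 9 H3 and 10 of 11 H4 genes fell, with medians of -4.41, -2.90, -4.28 and -3.44. All 9 members that passed the filter in each group fell, with a median of -2.90. The 3 members not called, named because they are few, were Hist3h2a, Hist2h2be at 0.03 ± 0.41 (SE, adjusted p = 0.956) and Hist1h4i at -0.94 ± 0.42 (SE, adjusted p = 0.0646).

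Libraries also differed along the GC content of genes, so each comparison was repeated after removing from every library its trend over transcript length and GC content, called GC-adjusted here. Members of the 4 types differ in GC content, with medians among tested genes of 65.1% for H2A, 55.4% for H2B, 59.5% for H3 and 56.2% for H4. Across all tested genes, the log2 fold change in co-culture on nanotopography had a Spearman correlation of -0.73 with GC content, and across the 42 members, which share libraries, one of -0.56. On control Ti the correlation was 0.16 over all genes and -0.61 over the members. Members had lower medians than all tested genes of like GC content: between 40 and 50% GC, 11 members had a median of -2.67 on nanotopography and 6375 tested genes a median of 0.34. From 50 to 60% the medians were -3.28 for 14 members and -0.53 for 5477 genes, and at 60% or more -4.28 for 17 members and -1.34 for 489 genes.

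GC-adjusted, 16 members fell in co-culture on control Ti, with a median of -0.83 and a background of 11.9% of all tested genes called lower. On nanotopography 38 fell, with a median of -2.32 and a background of 21.4%. Of the 9 members that passed the filter in each group, 3 fell GC-adjusted on control Ti and 9 on nanotopography. The adjusted log2 fold changes on nanotopography were -4.25 for Hist2h2ac, -3.61 for Hist1h2ak, -3.06 for Hist1h2ab, -1.40 for Hist1h2bc, -1.75 for Hist1h2bm, -3.30 for Hist1h3b, -2.67 for Hist1h3c, -1.80 for Hist2h4, -3.38 for Hist1h4d and -2.30 for Hist1h4h, each still called. By type, the GC-adjusted medians on control Ti were -1.87 for H2A, -1.81 for H3, -0.38 for H4 and -0.36 for H2B, and on nanotopography -2.96, -2.78, -2.30 and -1.71. Hist1h3i was the member lost, at -1.03 (adjusted p = 0.117) against -3.33 ± 0.47 (SE, adjusted p = 1.68e-05) without the adjustment.

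**Figure D3:**
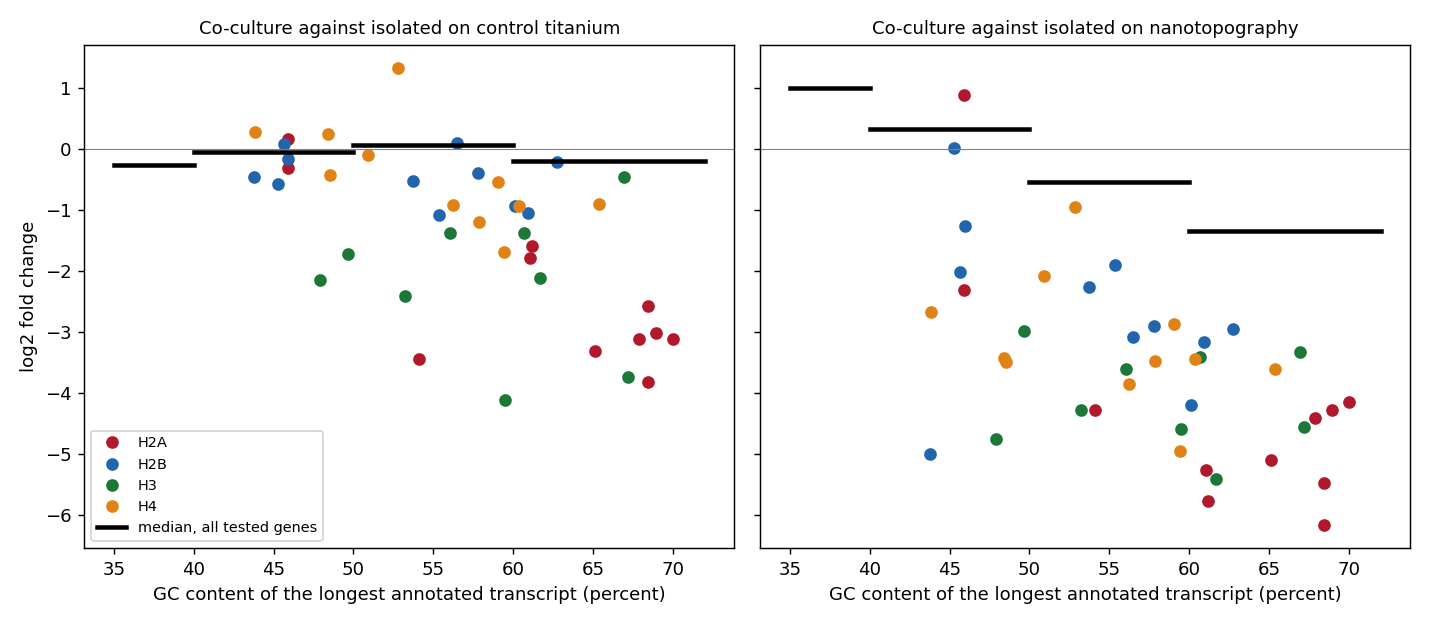
Log2 fold change of co-culture against isolated cells (vertical axis) by GC content of the longest annotated transcript (horizontal axis, percent) for the 42 tested members, colored by type, on control Ti (left) and nanotopography (right); black bars are medians of all tested genes in 4 GC ranges, the outer ranges drawn only as far as the axis. On nanotopography 40 of the 42 members lie below 0, and on control Ti the lowest points are H2A and H3 genes.

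Length of the annotated 3′ end was looked at after the values were seen. Of 10 members with an annotated 3′ untranslated region over 1000 bases, 7 were tested: Hist1h2ac, Hist1h2be, Hist1h2bh, Hist2h2be, Hist2h4, Hist3h2a and Hist4h4. On control Ti 0 of these 7 were called by edgeR (0 also GC-adjusted, and 0 at an unadjusted p under 0.05), with a median log2 fold change of -0.10, against 18 of the 35 others and a median of -1.37. On nanotopography 5 of 7 and 34 of 35 fell. The 7 genes had a GC content of at most 50.9%, and no test of this grouping was made.

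Head-to-head neighbours could be compared in the 4 pairs with both genes tested. The H2A gene had the lower log2 fold change in 4 of 4 pairs in co-culture on each surface. In isolated cells Hist2h2be stood at 1.04, 1.28 and 2.52 CPM on control Ti and 1.68, 1.32 and 1.36 on nanotopography, and in co-culture at 1.08, 0.697 and 1.35 and 1.56, 1.78 and 1.06. The ranges of Hist2h2be overlapped in all 4 groups, while those of Hist2h2ac, on the other side of the region shown above, were separate. In the pair Hist1h2ak and Hist1h2bn the values were -3.82 and -0.20 on control Ti and -6.18 and -2.95 on nanotopography. For Hist1h2ae and Hist1h2bg they were -3.45 and -0.52, then -4.28 and -2.27, and for Hist1h2ac and Hist1h2bc -0.30 and -0.16, then -2.31 and -1.26. With nanotopography in isolated cells the H2A gene was lower in 1 of 4 pairs, and in co-cultured cells in 2 of 4. The differences within pairs were not tested.

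With nanotopography in isolated cells, 27 of 42 tested members rose and 0 fell by edgeR (at an unadjusted p under 0.05, 39 were higher and 0 lower). The background was 9.71% of all tested genes called and 4.32% called higher, and 83.3% of tested members had 3 nanotopography libraries above the 3 control libraries, against 15.3% of all genes. The median was 1.17, against 0.01 over all tested genes. By type, 7 of 11 H2A, 7 of 11 H2B, 3 of 9 H3 and 10 of 11 H4 genes rose. Of the 9 members that passed the filter in each group, 8 rose, with a median of 1.14. DESeq2 gave an adjusted p to 13 of the 42 members and called 12 of them higher and 0 lower, where 8.92% of the 9978 genes with an adjusted p were called higher. At its unadjusted p under 0.05, 37 members differed, with a median of 1.18. The GC-adjusted count was 21 members higher (3.71% of all tested genes), among them 8 of the 9 that passed the filter in each group. Of all tested genes 576 were called higher and 719 lower, or 495 and 232 GC-adjusted. The count rested on single libraries: it was 1 without isolated control Ti replicate 1, 1 without isolated control Ti replicate 2, 1 without isolated nanotopography replicate 3 and 7 without isolated nanotopography replicate 1, when 3, 3, 3 and 65 of all genes were called. In these 4 fits, which tested 43 to 45 members, the members' medians were 1.04, 1.13, 0.96 and 1.19, with 35, 37, 33 and 37 members at an unadjusted p under 0.05.

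The called rises lay in a narrow range. Hist1h2ah had the largest among H2A genes, 2.25 ± 0.48 (SE, adjusted p = 0.0183), and Hist1h2ai the smallest, 1.01 ± 0.25 (SE, adjusted p = 0.0264). Among H2B genes Hist1h2bn rose by 1.73 ± 0.39 (SE, adjusted p = 0.0213) and Hist1h2bc by 0.77 ± 0.15 (SE, adjusted p = 0.0118). For H3 the called genes were Hist2h3b, Hist1h3e and Hist1h3b, from 1.36 ± 0.25 (SE, adjusted p = 0.0112) for Hist2h3b to 1.02 ± 0.26 (SE, adjusted p = 0.0266) for Hist1h3b. All 50-base stretches of Hist2h3b are shared with Gm20628, so its reads, like those of Hist2h2bb, cannot be told apart from those of that gene. Among H4 genes Hist1h4i rose by 2.02 ± 0.49 (SE, adjusted p = 0.024) and Hist2h4 by 1.02 ± 0.25 (SE, adjusted p = 0.0247). The level of Hist1h4i was 0.391, 0.349 and 0.671 CPM on control Ti and 2.69, 1.47 and 1.53 on nanotopography in isolated cells, and 1.08, 0.837 and 1.65 and then 1.13, 1.14 and 0.607 in co-culture. Its mean was lowest in isolated cells on control Ti. Hist2h2ac rose by 1.16 ± 0.26 (SE, adjusted p = 0.0211). GC-adjusted, the rises of Hist1h2ai (0.50, adjusted p = 0.214) and Hist1h3b (0.70, adjusted p = 0.0788) were not called.

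With nanotopography in co-cultured cells, 13 of 42 tested members fell and 0 rose by edgeR (at an unadjusted p under 0.05, 18 were lower and 0 higher, and DESeq2 called 15 lower and 0 higher, with 21.3% of all tested genes called lower). The share called was near the background, with 42.0% of all tested genes called and 23.3% called lower, and 40.5% of tested members had 3 nanotopography libraries below the 3 control libraries, against 28.4% of all genes. The median was -1.01, against -0.02 over all tested genes. The called genes were 2 of 11 H2A, 4 of 11 H2B, 1 of 9 H3 and 6 of 11 H4, and 6 of the 9 members that passed the filter in each group. GC-adjusted, 7 fell, with a median of -0.35 and a background of 11.2% called lower, and 4 of these 7 were among the 9. Without co-culture on nanotopography replicate 1, 8 fell.

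Hist2h2ac and Hist1h2af were the H2A genes lower on nanotopography in co-culture, at -3.04 ± 0.36 (SE, adjusted p = 2.78e-05) and -2.11 ± 0.61 (SE, adjusted p = 0.0116). Hist1h2bh had the lowest H2B value, -3.26 ± 0.80 (SE, adjusted p = 0.00476), from 2 counts against 24 (ratio 11.2, 95% counting interval 2.78 to 97.7), and Hist1h2bg the called one nearest to 0, -0.79 ± 0.28 (SE, adjusted p = 0.032). Hist1h3i was the 1 H3 gene, at -1.77 ± 0.54 (SE, adjusted p = 0.0162). Hist1h4c measured 3.64, 4.89 and 5.71 CPM in isolated cells on control Ti, 10.6, 7.49 and 15.6 on nanotopography, and in co-culture 3.56, 6.97 and 6.61 on control Ti and 0.991, 0.635 and 1.52 on nanotopography. Hist1h4c had the lowest called H4 value, -2.43 ± 0.41 (SE, adjusted p = 0.0004), and Hist2h4 the one nearest to 0, -0.96 ± 0.28 (SE, adjusted p = 0.013). GC-adjusted, Hist2h2ac (-2.11), Hist1h2bh (-3.53), Hist1h4c (-2.38) and Hist2h4 (-0.75) were still called, and Hist1h2af (-1.11, adjusted p = 0.228), Hist1h2bg (-0.37, adjusted p = 0.334) and Hist1h3i (-0.77, adjusted p = 0.359) were not.

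The log2 fold change with co-culture was lower on nanotopography than on control Ti by the interaction test in 29 of 42 tested members, and higher in 0 by edgeR (at an unadjusted p under 0.05, 32 were negative and 0 positive, and DESeq2 called 31 negative and 0 positive, with 24.1% of all tested genes called negative). The 29 include members that were not lower on control Ti: Hist1h4i stood at 1.34 there and at -0.94 on nanotopography, neither of them called, and Hist4h4 at 0.29 on control Ti. The 4 comparisons between groups use the same 12 libraries, each group in 2 of them. Of all tested genes 47.8% had a called interaction and 25.4% a negative one. The median difference of log2 fold changes was -2.28, against -0.05 over all tested genes. All 11 tested H4 genes, 9 of 11 H2B, 6 of 11 H2A and 3 of 9 H3 genes were called, and 8 of the 9 members that passed the filter in each group. GC-adjusted, 13 were called (2 H2A, 6 H2B, 0 H3 and 5 H4), with a median of -1.34 and 13.2% of all tested genes called negative. Of these 13, 7 were among the 9 members that passed the filter in each group. Of all tested genes 2994 had a called positive and 3389 a called negative interaction, or 1024 and 1756 GC-adjusted. Hist2h2ac had a difference of -4.19 ± 0.45 (SE, adjusted p = 2.40e-05) (GC-adjusted -2.91, adjusted p = 2.27e-05), and Hist1h4c one of -3.68 ± 0.51 (SE, adjusted p = 0.00011) (GC-adjusted -3.57, adjusted p = 0.000131). For Hist1h3b it was -0.49 ± 0.82 (SE, adjusted p = 0.638), and both co-culture groups were close to 0.

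**Figure D4:**
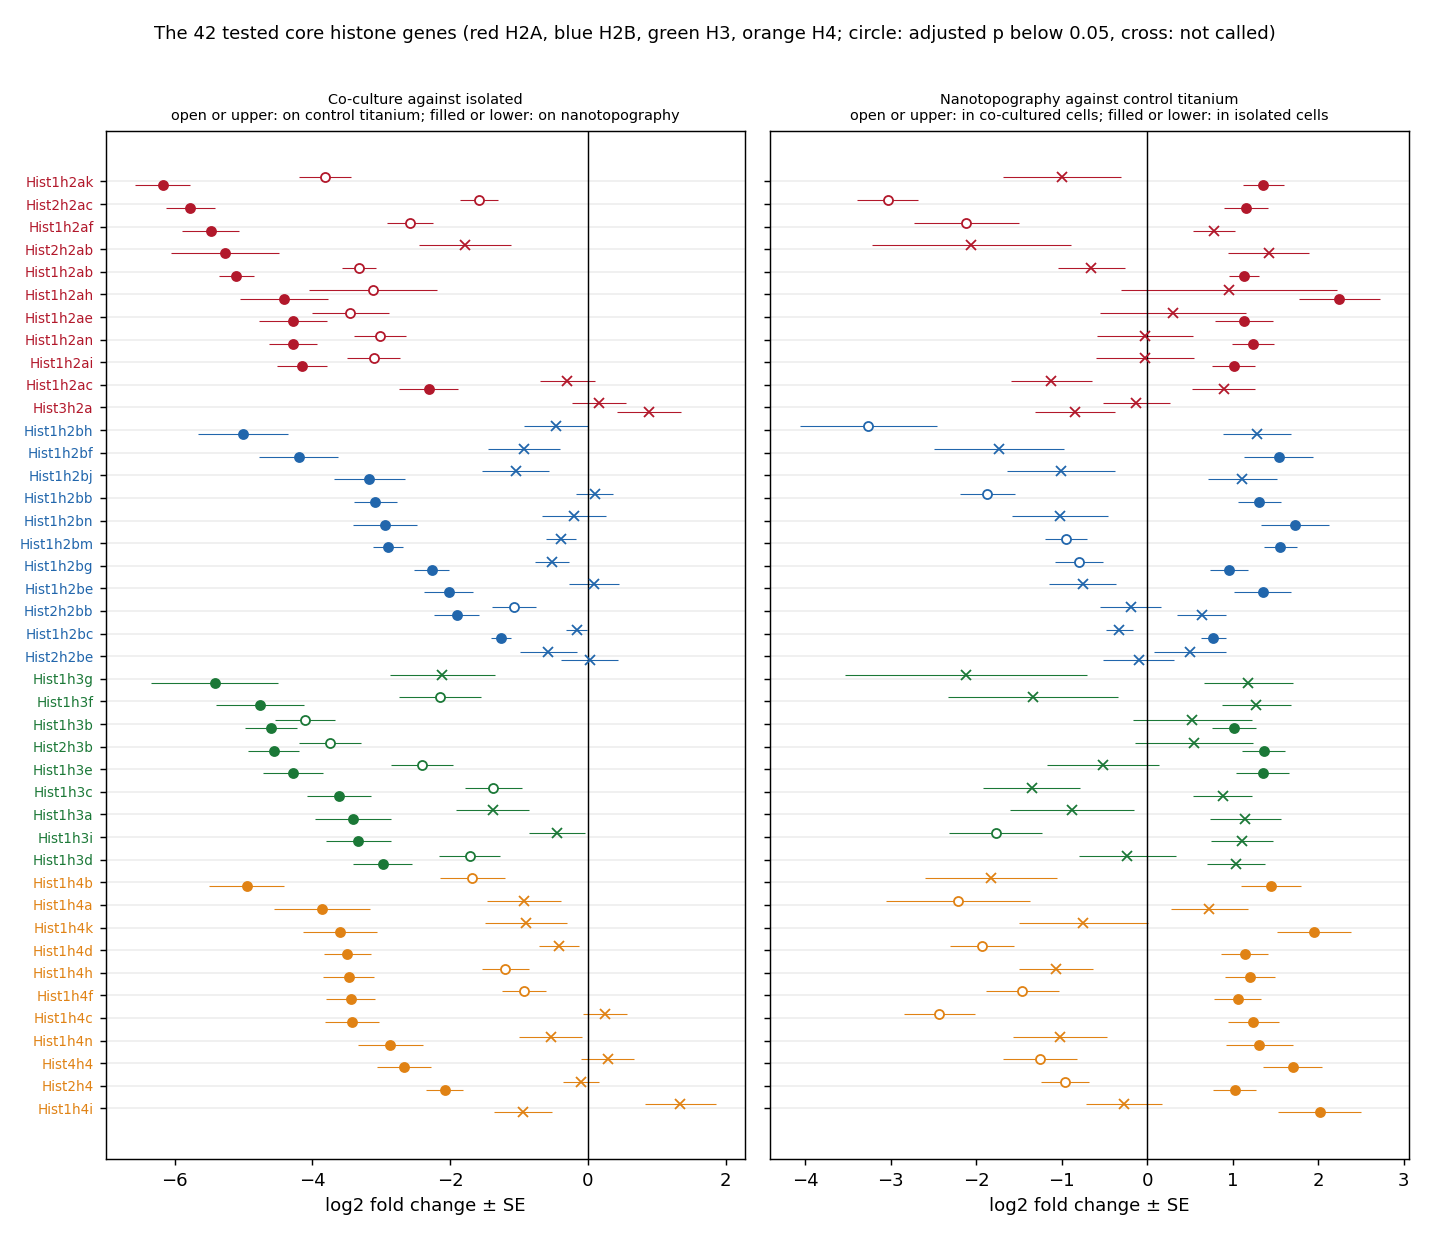
Log2 fold change with its SE (horizontal axes) of the 42 tested members (vertical axis), grouped by type, for co-culture against isolated cells (left) and nanotopography against control Ti (right); circles passed an adjusted p of 0.05 and crosses did not. On the left, nearly all marks for nanotopography (filled or lower) lie below -1. Many H2B and H4 marks for control Ti (open or upper) lie near 0 as crosses. On the right, marks for isolated cells (filled or lower) lie mostly near 1 and those for co-culture (open or upper) mostly below 0.

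The other histone genes were read from lists chosen with earlier results of these data known. The counts for these and the later lists stand beside 19.7, 59.2, 9.71 and 42.0% of all tested genes called in the 4 comparisons. Linker histones, which bind the DNA between nucleosomes, had 6 tested genes: 2 fell in co-culture on control Ti (median -0.53), 6 fell on nanotopography (median -3.17), 5 rose with nanotopography in isolated cells (median 1.07) and 6 fell with it in co-culture (median -1.33). Of 8 tested replacement variants, 1 rose and 5 fell in co-culture on each surface. H2afx, the H2A.X gene, whose mRNA can also end in the histone stem-loop, fell on both, at -2.59 ± 0.24 (SE, adjusted p = 1.17e-06) on control Ti and -4.38 ± 0.26 (SE, adjusted p = 2.90e-09) on nanotopography. H2afz, which encodes H2A.Z, had -1.59 ± 0.23 (SE, adjusted p = 0.000131) and -3.56 ± 0.28 (SE, adjusted p = 4.36e-08), and H2afj -1.27 ± 0.18 (SE, adjusted p = 9.68e-05) and -3.85 ± 0.21 (SE, adjusted p = 6.54e-10). H3f3b, which encodes H3.3, rose by 0.79 ± 0.10 (SE, adjusted p = 2.78e-05) and by 1.28 ± 0.10 (SE, adjusted p = 3.92e-08). The second H3.3 gene, H3f3a, fell by 0.99 ± 0.20 (SE, adjusted p = 0.00192) on control Ti and stood at -0.46 ± 0.20 (SE, adjusted p = 0.0601) on nanotopography.

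Genes that make and remove histone mRNA had medians close to 0. Of 20 tested, 1 rose and 2 fell in co-culture on control Ti, and 5 rose and 5 fell on nanotopography, a share of 20 under the 59.2% of all tested genes called there, with medians of -0.06 and -0.07. GC-adjusted, 2 rose and 3 fell on control Ti, with a median of -0.04. On nanotopography 1 rose and 7 fell GC-adjusted, with a median of -0.19, where 21.4% of all tested genes fell. Slbp held 25.2 ± 2.72, 23.5 ± 1.58, 21.5 ± 3.08 and 25.0 ± 4.52 (SD, n = 3) CPM in the 4 groups in the order used above, and its log2 fold changes were -0.23 ± 0.15 (SE, adjusted p = 0.296) and 0.08 ± 0.15 (SE, adjusted p = 0.657). Npat, the coactivator of histone gene transcription, rose by 1.07 ± 0.19 (SE, adjusted p = 0.000123) on nanotopography, and Casp8ap2 (FLASH), needed for processing the 3′ end, by 1.05 ± 0.23 (SE, adjusted p = 0.000926). GC-adjusted, neither Npat (0.14, adjusted p = 0.339) nor Casp8ap2 (0.16, adjusted p = 0.357) was called. Eri1, the nuclease that trims histone mRNA, rose by 0.39 ± 0.13 (SE, adjusted p = 0.0168), and GC-adjusted it stood at -0.23 (adjusted p = 0.130). The U7 proteins Lsm10 and Lsm11 and the transcription factor Hinfp were not called with co-culture on either surface, with log2 fold changes from -0.56 to 0.64, and Zfp473 had 44 counts in all and was not tested.

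Of the S phase genes, fewer passed the test. In co-culture on control Ti, 1 of 25 tested genes fell, Rrm2, a subunit of ribonucleotide reductase, at -0.69 ± 0.18 (SE, adjusted p = 0.0115), and 0 rose by edgeR or by DESeq2 (1 at an unadjusted p under 0.05). On nanotopography 13 fell and 4 rose, with a median of -0.44, where 30.4% of all tested genes fell. GC-adjusted, 12 fell and 0 rose there, with a median of -0.34, where 21.4% of all tested genes fell. Without the adjustment, Ccne1 (cyclin E1) fell by 1.26 ± 0.28 (SE, adjusted p = 0.000981). Mcm2, part of the replicative helicase, fell by 1.15 ± 0.12 (SE, adjusted p = 8.19e-07). Pcna, the replication clamp, stood at 0.12 ± 0.13 (SE, adjusted p = 0.416), and the proliferation marker Mki67 rose by 0.67 ± 0.18 (SE, adjusted p = 0.00386), or GC-adjusted 0.19 (adjusted p = 0.244). With nanotopography in isolated cells 6 rose and 0 fell by edgeR (1 lower at an unadjusted p under 0.05, 0 by DESeq2), and in co-cultured cells 4 rose and 1 fell. The GC-adjusted counts were 4 higher and 0 lower in isolated cells, and 1 higher and 1 lower in co-cultured cells. Of 20 histone chaperones, 2 rose and 1 fell in co-culture on control Ti, and 4 rose and 6 fell on nanotopography, again under 59.2%. The chromatin assembly genes Chaf1a and Chaf1b fell there, at -0.68 ± 0.13 (SE, adjusted p = 0.000253) and -1.06 ± 0.31 (SE, adjusted p = 0.00681), Asf1b was at -0.84 ± 0.37 (SE, adjusted p = 0.0614), and Nasp, the H3 and H4 carrier, at 0.22 ± 0.17 (SE, adjusted p = 0.286).

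RNAs that lack a conventional poly(A) tail but are no histone mRNAs split into 2 groups. Of the 7 tested, 1 rose (Neat1) and 0 fell in co-culture on control Ti by edgeR or by DESeq2 (0 lower at an unadjusted p under 0.05), and 2 rose and 4 fell on nanotopography. Rn7sk held 196 ± 13.7, 333 ± 95.8, 159 ± 47.3 and 109 ± 36.8 (SD, n = 3) CPM in the 4 groups, and fell by 1.61 ± 0.23 (SE, adjusted p = 2.15e-05) on nanotopography, with a GC-adjusted value of -0.39 (adjusted p = 0.0487). Rn7s1 and Rn7s2, copies of the signal recognition particle RNA, fell at -2.72 ± 0.33 (SE, adjusted p = 4.31e-06) and -3.22 ± 0.37 (SE, adjusted p = 2.11e-06). Malat1, a long nuclear RNA, held 11481 ± 2276, 6882 ± 2409, 13200 ± 1272 and 24796 ± 4580 (SD, n = 3) CPM and rose by 1.85 ± 0.21 (SE, adjusted p = 1.70e-06). Rpph1 had 51 counts in all and was not tested, and Rmrp had 0. Whether the libraries captured RNA without poly(A) tails to an equal degree was not tested.

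The tested protein-coding genes outside the members that followed the histone sum most closely over the 12 libraries were Hist1h1b (Pearson r = 0.991), Gmppb (0.989), Pfn1 (0.988), Hist1h1e (0.988) and Tmem97 (0.987), on log2 CPM. These correlations are a description over libraries that share their group differences. Hist1h1b and Hist1h1e are linker histone genes, Gmppb makes GDP-mannose for glycosylation, Pfn1 encodes the actin-binding protein profilin and Tmem97 a membrane protein. Hist1h1e stood at 188.6 ± 0.790, 485 ± 87.1, 110 ± 44.6 and 43.4 ± 11.1 CPM (SD, n = 3) in the 4 groups in the order used above, so it separated them in the same order as the core histones.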

How the data were processed

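Gene expression was measured by RNA sequencing in 12 libraries, 3 in each of 4 groups taken from the labels. The deposited values are raw counts per gene, made by the authors. Per the submitters' processing notes the tools were cutadapt, FastQC 0.63, STAR 2.4, HTSeq and DESeq2 with build mm10; their settings, the annotation and the strand setting are not given in the sources used here. The files end at different genes, so the 52654 genes complete in all files were used (the longest file has 54275), which held 5866842 to 9207831 counts per library. Gene IDs were matched without version to GENCODE M21.

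The members and gene lists were chosen with earlier results of these data known. Counts were fitted over all 12 libraries with edgeR 4.0.16 (R 4.3.3, limma 3.58.1; quasi-likelihood test, TMM scaling, group means), after edgeR's low-count filter with a minimum count of 10, which left 13340 genes. P-values were adjusted by Benjamini-Hochberg over all of them, with a threshold of 0.05. CPM use TMM-scaled totals. Log2 CPM for correlations use a prior count of 2. Alternatives were RLE scaling, no filter, DESeq2 1.42.0, a replicate block, removal of each library's loess trend (span 0.3) with GC content and transcript length, with and without the block, leaving out Gm26917, Gm42418 and the 2 mitochondrial ribosomal RNAs, fitting only the groups compared, and leaving out each library. Counting intervals (95%, exact) and the floor of 3 counts cover counting error only, since reads carried no molecular identifiers.

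The script was tested on simulated data, with 200 of 13340 genes changed. For co-culture on nanotopography 93.9% of 4-fold, 82.1% of 2-fold and 31.3% of 1.5-fold changes were recovered, with 6 unchanged genes called. For the interaction the values were 83.3, 50.7 and 7.46%, with 0. Each gene was drawn around its mean over all libraries, with 1 spread common to all genes (12.3% coefficient of variation). Spread that differs by gene and the low co-culture counts of members were not simulated, so these rates do not describe the members. Named were the 3 members of each type and the 1 of each cluster outside Hist1 with the highest mean CPM, the called members with the highest and lowest fold change of each type in each comparison, and set genes of each list. Hist2h2be, Hist1h2ae, Hist1h4i on control Ti, Gm20628, Neat1, Rn7s1, Rn7s2, the macrophage markers and the members with long 3′ ends were named after their values were seen.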

Additional observations from a re-analysis of the deposited data

Results flagged for a closer look

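The effect of co-culture differed between the 2 surfaces in 29 of 42 tested members by the interaction term of edgeR's quasi-likelihood test (adjusted p under 0.05, Benjamini-Hochberg), all in the negative direction, where 25.4% of all tested genes were called negative. Each value below is the log2 fold change on nanotopography minus that on control Ti, for members named by the rule or with the extreme values of a type. The H2A values were -1.79 for Hist1h2ab, -2.01 for Hist1h2ac, -2.90 for Hist1h2af, -2.36 for Hist1h2ak and -4.19 for Hist2h2ac. Those of H2B genes were -1.10 for Hist1h2bc, -1.75 for Hist1h2bg, -4.55 for Hist1h2bh, -2.51 for Hist1h2bm and -2.75 for Hist1h2bn. For H3 genes they were -2.24 for Hist1h3c, -1.87 for Hist1h3e and -2.88 for Hist1h3i. Among H4 genes they were -3.27 for Hist1h4b, -3.68 for Hist1h4c, -3.07 for Hist1h4d, -2.52 for Hist1h4f, -2.27 for Hist1h4h, -2.29 for Hist1h4i, -1.98 for Hist2h4 and -2.96 for Hist4h4. GC-adjusted, Hist1h2ab (adjusted p = 0.572), Hist1h2af (adjusted p = 0.133), Hist1h2ak (adjusted p = 0.434), Hist1h2bn (adjusted p = 0.143), Hist1h3c (adjusted p = 0.128), Hist1h3e (adjusted p = 0.216), Hist1h3i (adjusted p = 0.123), Hist1h4b (adjusted p = 0.0611), Hist1h4h (adjusted p = 0.0629) and Hist1h4i (adjusted p = 0.073) were no longer called, and the others given here were. In all, 13 members had a called interaction GC-adjusted.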

How the results depend on the processing

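Counts of called members are given in the order co-culture on control Ti, co-culture on nanotopography, nanotopography in isolated cells, nanotopography in co-culture and interaction, with 18, 39, 27, 13 and 29 as reported. Leaving out 1 library gave 10 to 20, 40 to 42, 1 to 35, 8 to 19 and 26 to 34, of 43 to 45 members tested rather than 42. The lowest came without co-culture on control Ti replicate 1 (10), without co-culture on nanotopography replicate 1 (8) and, for nanotopography in isolated cells, without isolated control Ti replicate 1 or 2 or isolated nanotopography replicate 3 (1 each). Mean histone sums without 1 library were 294 to 365 CPM in isolated cells on control Ti, 647 to 827 on nanotopography, 139 to 182 in co-culture on control Ti and 59.1 to 68.6 on nanotopography. For nanotopography in isolated cells DESeq2 called 12 of the 13 members to which it gave an adjusted p; the other 29 have none and are not counted as lost. GC-adjusted counts were 7 for nanotopography in co-culture and 13 for the interaction. For the GC-adjusted and left-out values the cause was not tested.

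With the replicate number as a block the 5 counts were 19, 39, 27, 15 and 29. Same-numbered libraries of different groups correlated between -0.39 and 0.30 in their deviations from group means. Differently numbered libraries were not compared, so these values cannot decide whether same-numbered libraries share more than a number. The block combined with GC adjustment gave 16 for nanotopography in isolated cells, 6 for nanotopography in co-culture and 14 for the interaction.

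Over all tested genes, GC adjustment moved the called count from 7892 to 5261 for co-culture on nanotopography (5051 with the block), from 1295 to 727 (489) for nanotopography in isolated cells, from 5599 to 2445 (2185) in co-culture and from 6383 to 2780 (2508) for the interaction. Without a low-count filter 2100 genes were called for nanotopography in isolated cells. Leaving out 1 library gave 1436 to 2976 called genes for co-culture on control Ti, 3 to 2877 for nanotopography in isolated cells and 3274 to 5944 in co-culture.

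For the 29 named members and 5 comparisons, 1007 of 1090 values under other settings kept their direction and side of the threshold, 53 lost the call and 30 gained one. With 1 library left out these were 1594, 118 and 28 of 1740, and no called value changed sign. The interaction has no fit with only the groups compared. The low-count filter left 19 members untested, 7 of them at 0 counts, and single copies among near-identical genes are uncertain.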
